A study of Mus musculus with 18 samples.

Results

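Under angiotensin II some mice of one strain form an abdominal aortic aneurysm (AAA) and others do not, and the comparison described here sets the aortas of the first (AAA, n = 5) against those of the second (no AAA, or aneurysm resistant, n = 7). The 12 arrays were chosen by their sample labels out of the 18 arrays of the series, and the other 6 come from saline controls. Every mouse was a male ApoE-/- mouse aged 13 to 14 weeks at the start. The angiotensin II mice received 1.44 µg/kg/min for 4 weeks from an osmotic minipump, and the controls received saline in the same way and for as long. One array was hybridised per mouse and no RNA was pooled, so a replicate is an animal. Infused mice without AAA share the strain, the sex, the lack of apolipoprotein E and the drug with those that had one, so the comparison asks which transcripts go with the aneurysm and not with angiotensin II alone. The model has limits that bear on every value. Group membership was read from the outcome at the end of the infusion, the RNA came from the whole aorta from arch to iliac bifurcation and not from the aneurysm, and 1 time point was taken.

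The aortic wall is kept by smooth muscle cells, which contract through actin and myosin, and by elastic fibres and collagen. An AAA is a lasting dilatation of that wall. It is known for loss of medial smooth muscle, for breakdown of elastin and collagen by proteases, and for leukocytes in the adventitia and media, macrophages, neutrophils and lymphocytes among them. In bulk RNA of a whole vessel, fewer cells of a type and less RNA per cell cannot be told apart.

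Signals are given here as log2 units above the median signal of the array, differences are AAA minus no AAA on the same scale, and p values are from limma with Benjamini-Hochberg adjustment over the 21434 probes detected on at least 5 of 18 arrays. A probe counted as detected where its deposited detection score was over 0.95. AAA arrays detected 20057 to 21052 probes, no AAA arrays 19438 to 20676 and saline arrays 18647 to 19661. The saline arrays filled BeadChip 1 (a slide of 6 arrays) and no AAA 1 to 6 filled BeadChip 2, while BeadChip 3 held AAA 1 to 5 and no AAA 7. The groups and the slides therefore overlap in the single array no AAA 7, and differences from saline cannot be told apart from differences between slides. With BeadChip fitted as a fixed block, over 12 or 18 arrays, the difference is the AAA mean minus no AAA 7 alone. A call kept with that block therefore rests on this array and is no independent check on slides. Calls of genes and probes with that block are from the 18-array fit, unless 12 arrays are named. That fit was added after the data were seen, and the block over 12 arrays ended more calls of named genes. Saline levels are given as values, and each comparison with saline shares its arrays with the one described here. The array no AAA 7 stood apart from the other no AAA arrays, on the side away from AAA, so the counts over all probes are also given without it, as are those of lists that it moved by over 1. Of the defining markers fixed for the tissue, those of smooth muscle that could be named (Acta2, Synpo2 and Cald1), 3 of 8, were detected on all 12 infused arrays.

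The aneurysmal and the resistant aortas differed widely. In AAA, 2310 probes (10.8% of those tested) were higher and 1813 (8.46%) were lower at an adjusted p under 0.05. Changes upward were larger: 464 of the higher probes passed 2-fold and 50 passed 4-fold, against 88 and 1 of the lower ones. At the study's own threshold, 2-fold with an unadjusted p under 0.05, 505 probes (2.36%) were higher and 89 (0.415%) lower. All 5 AAA arrays lay above all 7 no AAA arrays for 854 probes (3.98%) and below them for 513 (2.39%). Of all tested probes, 35 were detected on every AAA array and on no array of the no AAA group, and none the other way round. Without no AAA 7 the adjusted counts were 1974 and 1595. The methods' t-test with the same adjustment gave 473 higher (2.21%) and 323 lower (1.51%), and BeadChip as a fixed block over all 18 arrays gave 1809 (8.44%) and 935 (4.36%). Quantile normalization turned the balance to 2071 higher and 2318 lower, and scaling to the 75th percentile to 1968 and 2741.

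The 5 AAA aortas were not alike. On the first principal component of the 12 arrays, which held 43.2% of the variance, AAA 1 (51.0) and AAA 3 (56.4) lay far from the resistant aortas, and AAA 4 (10.8), AAA 2 (17.3) and AAA 5 (18.9) nearer to them. The no AAA arrays 1 to 6 lay between -22.6 and -10.2. No AAA 7 lay at -44.0, on the side away from AAA although it shared their BeadChip. AAA 4 was set apart on the second component (-47.4, 13.6% of the variance), where every other array lay between -17.6 and 13.7. Over the 2310 higher probes the median distance from the no AAA mean was 0.82 for AAA 1, 0.52 for AAA 2, 0.77 for AAA 3, 0.36 for AAA 4 and 0.54 for AAA 5. Most of the higher probes had their top AAA value in AAA 1 (1048) or AAA 3 (691).

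Some genes rose far and without overlap between the groups. One was AU044919, a transcript with no annotated role, which was detected on all AAA arrays and on no array of the no AAA group. It was at least 12.8-fold higher (adjusted p = 0.0013). Others were Igh-1a, an immunoglobulin heavy chain (difference 3.93, adjusted p = 0.016), and Igkc, the kappa constant region (difference 3.59), LOC381774 (difference 3.02) and LOC384414 (difference 3.0), transcripts named only by number. The deepest falls were those of Hspa1b, an inducible Hsp70 (difference -2.31), Synpo2 (difference -1.44), Slmap (difference -1.42) and Sost (difference -1.41), which are described below with their groups. The fixed BeadChip block ended the calls of AU044919 (adjusted p = 0.07), Igh-1a (0.23), LOC381774 (0.059) and LOC384414 (0.11), and among the falls those of Hspa1b (0.41) and Sost (0.094).

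**Figure D1:**
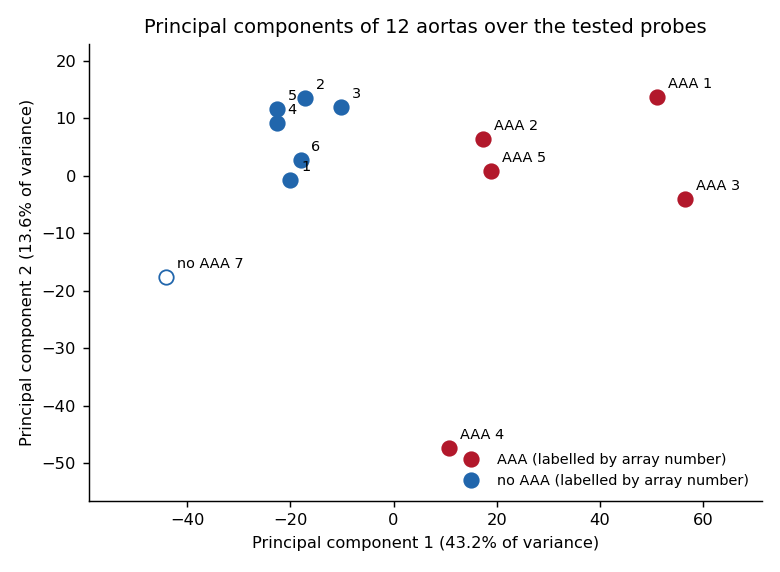
First 2 principal components of the 12 angiotensin II arrays over 21434 probes, with the share of variance on each axis, AAA in red and no AAA in blue. The AAA arrays lie to the right from 10.8 to 56.4, no AAA 1 to 6 cluster between -22.6 and -10.2, and the open point, no AAA 7, lies at -44.0.

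No AAA 7 gives the only value within a BeadChip. Of the 1974 probes that were higher in AAA when no AAA 7 was left out of the fit, 1960 were also lower in no AAA 7 than in the AAA mean on its own BeadChip, with a median difference of 0.86 against 0.61 from no AAA 1 to 6. For 890 of them it lay below every other resistant aorta. Of the 1595 probes that were lower, 1431 had the same direction against no AAA 7, with medians of -0.55 and -0.46. These counts use the AAA arrays on both sides and rest on 1 animal. An unusual aorta and an unusual hybridisation cannot be told apart.

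Gene names were available for 1350 genes, nearly all of them from the study's lists of transcripts that differed in at least 1 of its comparisons. For 9 probes outside those lists the name came from an accession in the probe identifier. Of the named and tested genes, 440 came from the study's list for AAA against no AAA, so their direction was chosen on these arrays. Membership of that list was read from the brightest probe of each gene. A gene held there only through another probe therefore counts as outside it. The other 908 were named, nearly all of them, through the comparisons with saline, which share the arrays. Of these 908, 311 were higher and 31 lower in AAA. The 31 gene lists described next are read with that limit: a count of called members is a description of the named genes and not independent evidence for the list. As a background for every list below, 10.8% of all tested probes were higher and 8.46% lower, with a median difference of -0.01. For members outside the study's list the nearer background is the 311 higher of 908 named genes. The plot of calls by list shows that leukocyte, matrix and cell division genes rose, that contractile and heat shock genes fell, and that brown fat, respiratory chain and clock genes had 1 call or none. White fat genes had 3 higher of 31, near the 10.8% of all tested probes. Without no AAA 7 the higher members were 20 and not 23 for chemokines, 20 and not 23 for cytokines, 18 and not 20 for lipid handling and 7 and not 9 for the TGF-beta, BMP, Wnt and hedgehog list, while the lower respiratory chain genes became 3 and not 1. The methods' t-test with adjustment left fewer calls in 29 of the 31 lists, by over 1.5 times. The fixed BeadChip block over 18 arrays did so in 7 lists. It gave more in 3, white fat (6), brown fat (2) and respiratory chain (15) genes. Over the 12 infused arrays the same block changed the count by over 1.5 times in 20 lists.

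**Figure D2:**
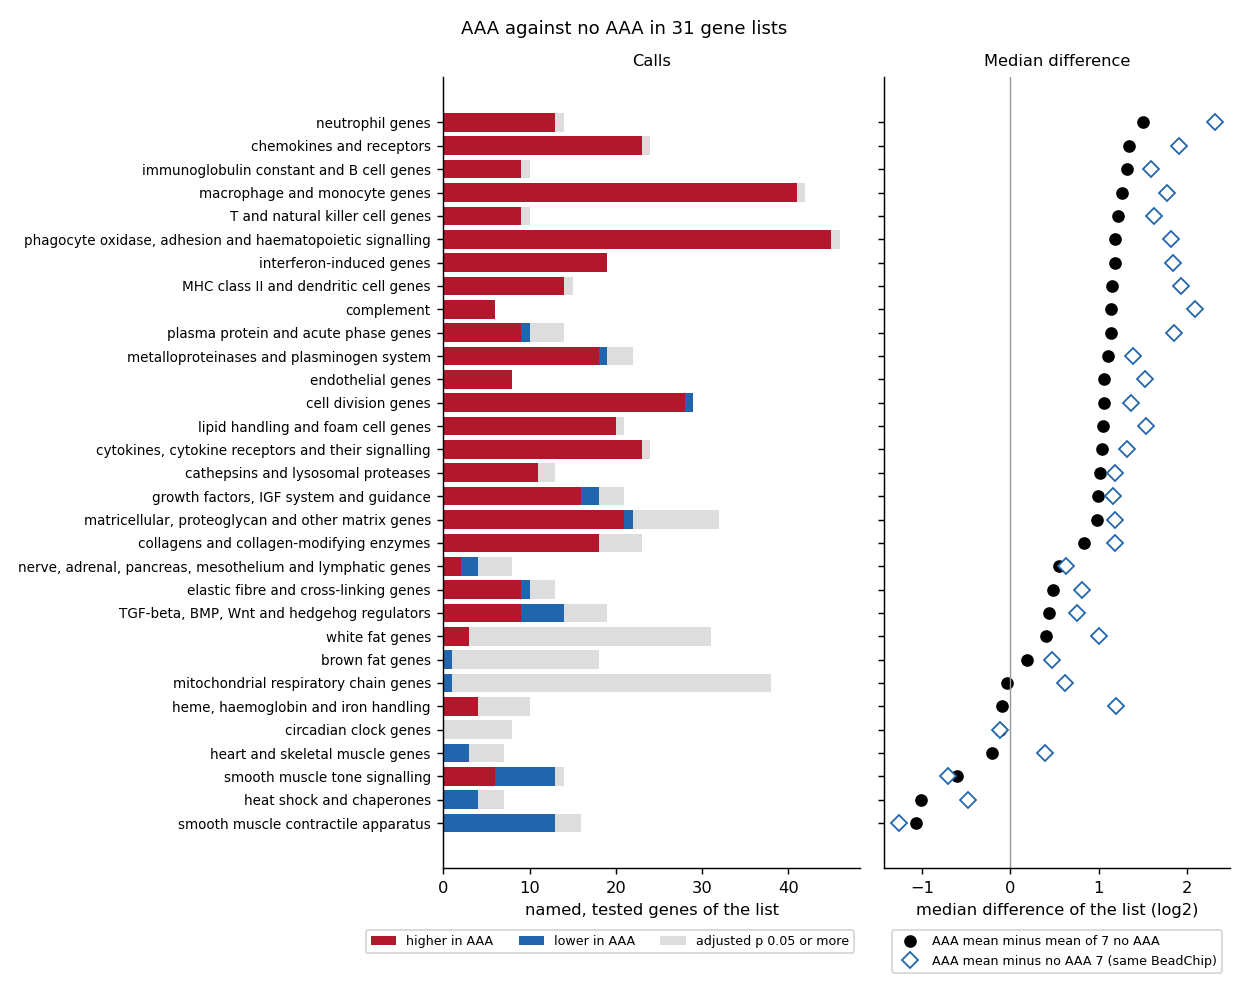
Left, for 31 gene lists, the number of named and tested genes that were higher (red), lower (blue) or not called (grey) in AAA at an adjusted p under 0.05. Right, the median log2 difference of each list against all 7 no AAA arrays (filled points) and against no AAA 7 alone, on the same BeadChip (open diamonds). The medians run from -1.07 for the contractile apparatus to 1.50 for neutrophil genes.

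Chemokines, the signals that draw leukocytes into tissue, rose together. Of 24 measured chemokine and receptor genes, 23 were higher in AAA and none lower (10.8% and 8.46% of all tested probes), with a median difference of 1.35. Of the 5 that the study's own AAA against no AAA list does not hold, 4 were higher. Cxcl9, an interferon-gamma-induced ligand for receptors on T cells, read 3.24, 3.15, 3.36, 3.10 and 2.76 in AAA 1 to 5, against a lowest, median and highest value of 0.72, 1.45 and 1.98 in no AAA. Its AAA values were close together and none overlapped with the resistant aortas, a difference of 1.64 (SE 0.18, adjusted p = 7.7e-05). Saline aortas were near AAA (mean 2.77). For Ccl4, which attracts macrophages and T cells, the AAA values were 5.06, 3.81, 4.19, 2.10 and 5.07 and the no AAA values 0.93, 2.09 and 2.70. AAA 4 lay inside the range of the resistant aortas and the other AAA aortas above it, and the difference was 2.08 (SE 0.42, adjusted p = 0.002). Cxcl10, made under interferon like Cxcl9, was detected on no array of the no AAA group and on 4 of 5 AAA arrays, with values of 0.89, 2.32, 1.07, 0.04 and 2.30. Against the detection limit it was at least 2.22-fold higher (adjusted p = 0.0034). That bound takes, for the group not detected, the higher of the probe's own signal and the lowest detected signal of each array.

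Both tested genes for Ccl21, which guides lymphocytes and dendritic cells along lymphatic vessels, were higher (Ccl21a difference 1.82, adjusted p = 0.0025 and Ccl21b difference 1.84, adjusted p = 0.0021). They are near-identical copies whose probes may read each other's RNA. Without no AAA 7, which had the lowest Ccl21a value (1.87), the difference was 1.52. Cxcl12, which holds haematopoietic cells through Cxcr4, was high in all aortas and higher in AAA (7.22, 5.91, 7.62, 5.99 and 5.64) than in no AAA (4.12 to 5.30, median 4.92), by 1.60 (SE 0.28, adjusted p = 0.00091). Cxcl14, a chemokine of epithelia and fibroblasts, was detected on 4 of 7 no AAA arrays and all AAA arrays and differed by 1.93 (SE 0.30, adjusted p = 0.00045). The monocyte chemokines Ccl2 (difference 1.18, adjusted p = 0.0064) and Ccl8 (difference 1.64, adjusted p = 0.0081) also rose, with overlap between the groups in both. Of these 9 called genes, the methods' t-test kept, after Benjamini-Hochberg adjustment, Cxcl9 (adjusted p = 0.0073), Ccl21a (0.035) and Ccl21b (0.035). With BeadChip as a fixed block over 18 arrays the call ended for Cxcl10 (adjusted p = 0.079).

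Cytokine and cytokine receptor genes followed the same direction, with 23 of 24 higher, none lower and a median of 1.03. Of the 10 outside the study's list for this comparison, 9 were higher. Socs3, the feedback inhibitor induced by Il6-type cytokines, had AAA values of 3.92, 3.99, 4.50, 3.28 and 4.03 and no AAA values of 1.68, 2.45 and 2.95. Every AAA aorta lay above every resistant one (difference 1.52, SE 0.21, adjusted p = 0.00023). Il6 itself was low, detected on 3 of 7 no AAA arrays, and read 1.21, 1.73, 2.05, 0.19 and 3.10 in AAA against -0.28, 0.10 and 1.18. AAA 5 was the highest and AAA 4 lay among the resistant aortas, for a difference of 1.38 (SE 0.34, adjusted p = 0.0082). Il1b, a cytokine of activated macrophages and neutrophils, showed the same order at its ends, AAA 5 highest (4.49) and AAA 4 lowest (1.77), and differed by 1.99 (SE 0.45, adjusted p = 0.0046). Il33, an alarm cytokine of stromal cells, was higher by 1.08 (SE 0.20, adjusted p = 0.0011). Tnfrsf11b (osteoprotegerin, a decoy receptor for Rankl and Trail) was higher by 0.57 (SE 0.19, adjusted p = 0.042), with no AAA values of 4.19 to 5.59 (median 4.92) that reached the AAA range of 5.05 to 5.62. Its saline mean was 3.45. Among the 5 called genes of this group named above, the methods' t-test kept, after Benjamini-Hochberg adjustment, Socs3 (adjusted p = 0.028) and Il33 (0.038). The fixed BeadChip block ended the call of Il6 (adjusted p = 0.067), Il1b (0.057) and Tnfrsf11b (0.44). Without 1 array or another the adjusted p reached 0.095 for Tnfrsf11b.

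All 19 measured interferon-induced genes were higher in AAA, 2 of them from outside the study's list for this comparison, with a median of 1.18. Their mean level was 3.81, 3.89, 3.84, 2.91 and 3.65 in AAA 1 to 5 and 1.87 to 2.68 in no AAA, so AAA 4 was the lowest AAA aorta by a wide gap and still above the resistant ones. Saline aortas lay at 2.32 to 3.17. Rsad2 (viperin, an antiviral enzyme) differed by 1.53 (SE 0.23, adjusted p = 0.00041), Oas1g, a sensor of double-stranded RNA, by 1.20 (SE 0.20, adjusted p = 0.00076), and Isg15, a ubiquitin-like protein, by 1.10 (SE 0.30, adjusted p = 0.015). Interferon acts through factors that bind the interferon-stimulated response element, and the letters GAAA, any 2 bases and GAAA again, searched on both strands from 250 bases before to 50 after the start of transcription, were found in 8 of the 18 list genes that have a RefSeq promoter window. Of all 27025 genes with a window, 3.99% hold them. For each gene 1 copy before the start, the nearest to it, is shown to let the match be seen. The stretches are from GRCm38.p6, 5′ to 3′ on the strand of the gene. Capitals mark the letters of that copy, or those of the same element on the other strand. Other copies that fall in a stretch stay in small letters.
Rsad2: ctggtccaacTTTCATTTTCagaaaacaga
Ifi205: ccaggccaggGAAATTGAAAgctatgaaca
Oas1g: tcgggaaatgGAAACTGAAAat
Ifit3: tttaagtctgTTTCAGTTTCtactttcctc
Cxcl10: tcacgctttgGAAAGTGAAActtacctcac
Trim30a: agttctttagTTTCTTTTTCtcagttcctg
Bst2: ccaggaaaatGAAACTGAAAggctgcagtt
Isg15: aaaggaaaccGAAACAGAAAatagctctgg
These stretches lie at Rsad2 at chr12:26456553-26456582, minus strand, Ifi205 at chr1:174031870-174031899, minus strand, Oas1g at chr5:120887614-120887635, minus strand, Ifit3 at chr19:34583397-34583426, plus strand, Cxcl10 at chr5:92349083-92349112, minus strand, Trim30a at chr7:104465210-104465239, minus strand, Bst2 at chr8:71537577-71537606, minus strand and Isg15 at chr4:156200865-156200894, minus strand. The element began 120, 134, 12, 122, 213, 36, 124 and 66 bases before the start in this order. Of the genes shown and not yet given, Ifi205, a sensor of DNA (difference 1.28, adjusted p = 0.00049), Ifit3, which binds viral RNA with its partners (difference 1.02, adjusted p = 0.00076), Trim30a (difference 0.82, adjusted p = 0.005) and Bst2 (tetherin, which holds virus particles at the cell, difference 1.18, adjusted p = 0.014) were higher as well. The methods' t-test followed by Benjamini-Hochberg adjustment was stricter, and of the 4 called genes named here it kept Ifi205 (adjusted p = 0.02) and Trim30a (0.044). Trim30a (adjusted p = 0.08) did not pass with the fixed BeadChip block. A match is a description of the letters and not evidence of binding. Of the 3 called genes given before the sequences, Rsad2, Oas1g and Isg15, the methods' t-test kept none after Benjamini-Hochberg adjustment. All of them kept an adjusted p under 0.05 with BeadChip as a fixed block over 18 arrays. With 1 array left out the adjusted p reached 0.051 for Isg15.

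Macrophage genes made up the largest cell type list. Of 42 measured macrophage and monocyte genes, 41 were higher in AAA and none lower, with a median of 1.27 (40 higher without no AAA 7), and of 8 outside the study's list 7 were higher. Their mean level was 5.29, 4.47, 4.74, 3.57 and 4.16 in AAA 1 to 5 against 2.62 to 3.69 in no AAA, with saline at 2.17 to 2.94. AAA 1 was highest, and AAA 4 lay inside the range of the resistant aortas. Cd68, a lysosomal membrane protein of macrophages, read 7.30, 6.36, 6.97, 5.29 and 6.05 in AAA and 4.08, 4.93 and 5.33 in no AAA. Again AAA 4 overlapped and the other AAA aortas did not (difference 1.54, SE 0.27, adjusted p = 0.00087). Clec4n, the myeloid receptor dectin-2, ranged from 3.14 in AAA 4 to 7.02 in AAA 1, with no AAA at 1.39 to 2.89 (median 1.80), and differed by 2.66 (SE 0.49, adjusted p = 0.0013), a 6.31-fold change. Trem2, a lipid-sensing receptor of tissue macrophages, differed by 1.71 (SE 0.34, adjusted p = 0.0021) and was low in saline (mean 1.20). The activating Fc receptors Fcgr1 (difference 1.57, adjusted p = 0.00027) and Fcgr4 (difference 1.88, adjusted p = 0.0005), which bind IgG, rose as well. Smaller differences were those of Cd14, a co-receptor for bacterial lipopolysaccharide (difference 1.05, adjusted p = 0.00079), Csf1r, the receptor for macrophage colony-stimulating factor (difference 0.60, adjusted p = 0.029), and Itgax, the integrin Cd11c (difference 0.64, adjusted p = 0.0071). Among the 8 called genes of this group named above, the methods' t-test kept, after Benjamini-Hochberg adjustment, Cd14 (adjusted p = 0.032). The fixed BeadChip block ended the call of Itgax (adjusted p = 0.18). Without 1 array or another the adjusted p reached 0.092 for Csf1r.

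The signalling machinery of blood-borne cells moved with them. In the list of phagocyte oxidase, adhesion and haematopoietic signalling genes, 41 of 46 were in the study's list for this comparison, chosen on these arrays. Of the 5 outside it 4 were higher. In all, 45 of 46 were higher and none lower (median 1.19). Of the 46, 30 had no overlap between the groups (3.98% of all probes above and 2.39% below), a count that such a choice favours. The higher genes included Ptpn6, a phosphatase that restrains immune receptors (difference 1.50, adjusted p = 0.00045), Rac2, the GTPase of the phagocyte oxidase (difference 1.34, adjusted p = 0.00074), Cybb, the catalytic subunit of that oxidase (difference 1.08, adjusted p = 0.0016), and the actin regulators Was (difference 1.31, adjusted p = 0.00072) and Coro1a (difference 1.33, adjusted p = 0.0017). All 6 complement genes were higher, and all 6 were in the study's list for this comparison. Among them were C4b, which is cleaved in the classical pathway (difference 1.09, SE 0.13, adjusted p = 0.00013), and C1qa, part of its first component (difference 1.17, adjusted p = 0.0044). C4a and C4b are close copies and their probes may share RNA. The methods' t-test followed by Benjamini-Hochberg adjustment was stricter, and of the 7 called genes named here it kept Ptpn6 (adjusted p = 0.032), Rac2 (0.026), Was (0.023), Coro1a (0.029) and C4b (0.017). Each of them passed with the fixed BeadChip block.

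Neutrophil genes had the highest median of all lists (1.50), with 13 of 14 higher and none lower, all of them chosen in the study's list for this comparison. Csf3r, the receptor for granulocyte colony-stimulating factor, read 1.69, 1.65, 1.58, 1.38 and 2.32 in AAA and -0.20, 0.36 and 0.70 in no AAA. The groups did not overlap, and AAA 5 was highest (difference 1.39, SE 0.21, adjusted p = 0.0004). S100a8, a calcium-binding alarmin stored by neutrophils, was variable: AAA values were 4.43, 4.43, 5.78, 3.63 and 5.73 and no AAA values 1.06, 2.91 and 4.64. The groups overlapped, the difference was 1.69 (SE 0.58, adjusted p = 0.049), and without no AAA 7, the lowest array, it was 1.34 (adjusted p = 0.093). Its saline mean was 4.13. Slpi, which inhibits the elastase of neutrophils, differed by 2.50 (SE 0.49, adjusted p = 0.0018), most in AAA 3 (5.19). Of these 3 called genes, the methods' t-test kept, after Benjamini-Hochberg adjustment, Csf3r (adjusted p = 0.022). All of them kept an adjusted p under 0.05 with BeadChip as a fixed block over 18 arrays. With 1 array left out the adjusted p reached 0.14 for S100a8.

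Immunoglobulin probes are the one large family whose names stand in the probe identifiers, so they could be counted whether or not the study had listed them. Of 145 probes for kappa variable segments, 49 were tested and 25 of these were higher in AAA (51%, against 10.8% of all probes). Their differences had a median of 1.83, and 48 were above 0. Of 136 heavy variable probes 30 were tested, all 30 differences were above 0 and 10 passed (33.3%, median 0.92). No tested probe of either kind was called lower. These counts depend on the detection filter, which the AAA arrays alone could meet and which left the other probes untested. Mean kappa variable levels in no AAA were low (-0.07 to 0.46), so the filter could favour probes raised in AAA. Its effect on the counts was not tested. Variable segments are alike in sequence and their probes share RNA, so these are not separate measurements. The methods' t-test with adjustment called none of them, and neither did the fixed BeadChip block.

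Immunoglobulin RNA levels separated the AAA aortas in another way than the macrophage genes did. The mean kappa variable level was 1.26, 0.89, 3.42, 2.87 and 0.96 in AAA 1 to 5 and -0.07 to 0.46 in no AAA. AAA 3 and AAA 4 stood far above the other AAA aortas. AAA 4, the aorta with the lowest macrophage and chemokine levels in its group, was thus among the 2 highest for these probes. The probe for IGHG2C, the constant region of an IgG heavy chain, was detected on all AAA arrays and on no array of the no AAA group, with AAA values of 1.51, 1.22, 5.33, 2.87 and 0.54. Against the detection limit it was at least 4.36-fold higher (adjusted p = 0.044), a call that ended with the methods' t-test (adjusted p = 0.17) and with the fixed BeadChip block (adjusted p = 0.27). Igkc, the kappa constant region, read 6.25, 5.91, 8.60, 8.08 and 5.99 in AAA and 2.21, 3.30 and 4.33 in no AAA, again highest in AAA 3 and AAA 4 and without overlap (difference 3.59, SE 0.81, adjusted p = 0.0046). Of the probes for other constant regions, IGLC1 passed (difference 1.51, adjusted p = 0.047). That call ended with the methods' t-test (adjusted p = 0.17) and with the fixed BeadChip block (adjusted p = 0.29). IGHM (difference 1.70, adjusted p = 0.078), IGHA (0.21, 0.14), IGLC2 (1.28, 0.16) and IGLC3 (1.29, 0.087) did not pass. Another probe for Ighm, the one counted in the list below, was called higher, so the probes for this gene disagreed. Saline aortas spread more widely than either infused group: their mean kappa variable levels were 1.14, 3.71, 0.77, 0.43, 0.09 and 0.13 in saline 1 to 6. Saline 2 thus lay above every AAA aorta and 4 of the 6 saline aortas below the lowest AAA value.

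**Figure D3:**
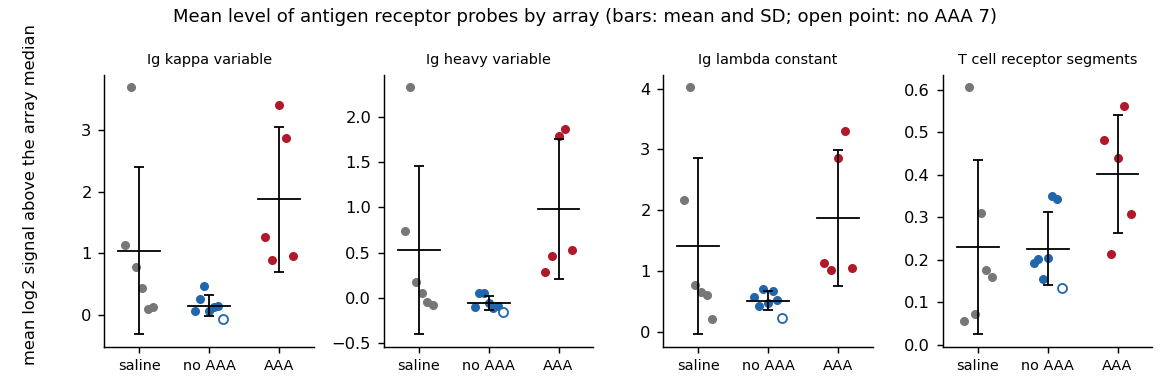
Mean log2 signal above the array median of the tested probes for Ig kappa variable, Ig heavy variable and Ig lambda constant regions and for T cell receptor segments, 1 point per array in saline, no AAA and AAA, with the group mean and SD as bars. AAA 3 and AAA 4 lead the AAA group for all Ig families, no AAA aortas stay low, and saline 2 is the highest saline array. The open point is no AAA 7.

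The list of immunoglobulin constant and B cell genes, which counts Igkc and Ighm beside genes of the cell itself, was higher as well. Of its 10 measured members, 9 were higher and none lower, with a median difference of 1.32 (8 higher without no AAA 7). Of the same 10, 9 were in the study's list for this comparison. Cd72, a co-receptor of B cells and some macrophages, read 5.83, 4.88, 5.50, 3.84 and 4.13 in AAA and 1.97, 2.79 and 3.54 in no AAA, without overlap (difference 1.98, SE 0.35, adjusted p = 0.00091). Here AAA 1 and not AAA 4 was the highest. Rasgrp3, a Ras activator downstream of the B cell receptor, had AAA values of 3.50, 2.76, 3.63, 3.11 and 2.93 against 1.62, 1.96 and 2.26 and differed by 1.26 (SE 0.15, adjusted p = 7.7e-05). Btk, the tyrosine kinase of that receptor, differed by 1.54 (SE 0.24, adjusted p = 0.00044) and its adaptor Blnk by 1.24 (SE 0.23, adjusted p = 0.0013). Cd79b, a chain of the receptor itself, had no overlap between the groups but missed the threshold (difference 1.21, adjusted p = 0.058). Among the 5 called genes of this group named above, the methods' t-test kept, after Benjamini-Hochberg adjustment, Igkc (adjusted p = 0.045), Rasgrp3 (0.034) and Btk (0.043). Each of the 5 kept its call with the fixed BeadChip block over 18 arrays, while that of Blnk ended with the block over 12 arrays.

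Among 10 T and natural killer cell genes, all 10 of them in the study's list for this comparison, 9 were higher, with a median of 1.22. Klrd1, a natural killer receptor chain, read 2.16, 2.24, 2.97, 1.87 and 2.35 in AAA against 0.71, 0.97 and 1.52 and differed by 1.28 (SE 0.24, adjusted p = 0.0014). Gpr171, a receptor found on T cells, differed by 1.60 (SE 0.27, adjusted p = 0.0007), with AAA 4 the lowest AAA aorta (1.17). Cd3d, a chain of the T cell receptor complex, had AAA values of 1.75 to 2.35 and no AAA values of 0.03 to 1.64 (median 0.96). It missed the threshold (difference 1.02, adjusted p = 0.069), although not by the methods' t-test (adjusted p = 0.0498). Of 52 probes for T cell receptor segments only 7 were tested and 1 was higher (14.3%, against 10.8% of all probes). Class II genes, which present antigen to these cells, were higher for 14 of 15 members of their list. Of those 15, 11 were in the study's list for this comparison. H2-Ab1 read 6.57, 7.01, 7.20, 6.74 and 6.95 in AAA and 3.83, 5.71 and 6.10 in no AAA. The AAA aortas differed little among themselves, and no AAA 7 was by far the lowest array (difference 1.40, SE 0.28, adjusted p = 0.0021). Fscn1, an actin bundler of mature dendritic cells, differed by 1.96 (SE 0.26, adjusted p = 0.00021). The methods' t-test followed by Benjamini-Hochberg adjustment was stricter, and of the 4 called genes named here it kept Klrd1 (adjusted p = 0.034). Each of them passed with the fixed BeadChip block.

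Proteases that cut matrix rose, and so did several of their inhibitors. Of 22 genes of the metalloproteinase and plasminogen list 18 were higher and 1 lower (median 1.11), and of 8 absent from the study's list of 2-fold changes 5 were higher. Mmp2 (gelatinase A) was strongly expressed, with AAA values of 8.75, 7.66, 8.24, 7.67 and 7.82 and no AAA values of 6.19, 6.80 and 7.16. The groups did not overlap, and the difference was 1.33 (SE 0.19, adjusted p = 0.00031). Mmp14, the membrane protease that activates it, differed by 1.23 (SE 0.18, adjusted p = 0.00031). Mmp9 (gelatinase B) was highest in AAA 3 (4.78) and differed by 1.71 (SE 0.34, adjusted p = 0.0018). Mmp13, a collagenase, spread from 2.47 in AAA 4 to 6.18 in AAA 2 and differed by 2.68 (SE 0.48, adjusted p = 0.00091). Mmp12, the macrophage elastase, just missed the threshold (difference 1.12, adjusted p = 0.053), and its saline mean (2.58) was far below that of no AAA (4.46).

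The inhibitors parted. Timp1, which blocks most metalloproteinases, was higher in 4 AAA aortas and not in AAA 4: values were 7.21, 7.27, 7.65, 4.91 and 7.28 against 4.41, 5.32 and 6.32 (difference 1.42, SE 0.41, adjusted p = 0.02). Timp4 was the one gene of the list that fell. It is absent from the study's list of 2-fold changes, but the study singled it out in this comparison. It read 2.48, 2.14, 2.60, 2.62 and 2.56 in AAA and 3.14, 3.47 and 3.77 in no AAA, all AAA aortas below all resistant ones, a difference of -1.0 (SE 0.15, adjusted p = 0.00036). Saline aortas were like the resistant ones (mean 3.78). Serpina3g, a serine protease inhibitor of leukocytes, was higher by 2.33 (SE 0.44, adjusted p = 0.0013). Of 13 cathepsin and lysosomal genes 11 were higher and none lower, Ctsk, a collagen- and elastin-cutting cathepsin (difference 1.20, SE 0.22, adjusted p = 0.0013), and Ctss, another elastase (difference 1.16, adjusted p = 0.0071), among them. Ctsb (difference 0.28, adjusted p = 0.13) and Ctsh (difference 0.29, adjusted p = 0.15) did not pass. Of these 9 called genes, the methods' t-test kept, after Benjamini-Hochberg adjustment, Mmp2 (adjusted p = 0.04), Timp4 (0.017) and Serpina3g (0.044). With BeadChip as a fixed block over 18 arrays the call ended for Mmp13 (adjusted p = 0.081). With 1 array left out the adjusted p reached 0.072 for Timp1.

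Collagen genes were higher in aneurysmal than in resistant aortas. Of 23 measured collagen and collagen-modifying genes 18 were higher and none lower (median 0.84), and 9 of the 14 outside the study's list were higher. Their mean level was 5.49, 4.89, 5.14, 4.73 and 5.06 in AAA 1 to 5 against 3.82 to 4.45 in no AAA, with saline at 3.30 to 3.73, so the groups did not overlap. Col24a1, a fibrillar collagen of bone, had the smallest p of all named genes. It was detected on every AAA array (1.22, 1.35, 1.17, 0.98 and 0.69) and on no array of the no AAA group, where the values were -0.41, -0.27 and -0.19. Against the detection limit it was at least 1.88-fold higher (adjusted p = 6.3e-09), and a second probe differed by 1.28. Col1a1, the main chain of type I collagen, read 8.17, 6.90, 7.69, 7.57 and 7.55 against 5.20, 5.91 and 6.59 (difference 1.66, SE 0.22, adjusted p = 0.00021). Col8a1, a short-chain collagen of the vessel wall, differed by 2.09 (SE 0.31, adjusted p = 0.00035), and Itga11, a collagen-binding integrin of fibroblasts, by 1.84 (SE 0.31, adjusted p = 0.00074). Col3a1 differed less (difference 0.53, adjusted p = 0.032), and Col4a2, of the basement membrane, did not pass (difference 0.48, adjusted p = 0.06), except with the fixed BeadChip block over 18 arrays (0.99, adjusted p = 0.037). Among the 5 called genes of this group named above, the methods' t-test kept, after Benjamini-Hochberg adjustment, Col24a1 (adjusted p = 0.024) and Col1a1 (0.026). The fixed BeadChip block ended the call of Col3a1 (adjusted p = 0.23). Without 1 array or another the adjusted p reached 0.11 for Col3a1.

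Elastic fibre genes changed less. Of 13, 9 were higher and 1 lower, with a median of 0.49. Eln, elastin itself, read 8.46, 8.27, 8.55, 8.12 and 8.55 in AAA and 7.21, 8.09 and 8.61 in no AAA and did not pass (difference 0.47, adjusted p = 0.16), with 2 resistant aortas at the low end, no AAA 7 among them. Fbn1, the main microfibril protein (difference 0.61, adjusted p = 0.0062), and Lox, which cross-links elastin and collagen (difference 0.64, adjusted p = 0.0028), were higher. The latent TGF-beta binding proteins went opposite ways: Ltbp2 was higher by 1.38 (SE 0.23, adjusted p = 0.00068) and Ltbp1 lower, a difference of -0.76 (SE 0.16, adjusted p = 0.0033), both without overlap. In the list of matricellular, proteoglycan and other matrix genes, 21 of 32 were higher, 1 was lower and 10 did not pass. Comp, a cartilage matrix protein also made by smooth muscle, stood out with AAA values of 7.10, 5.78, 6.64, 6.52 and 5.69 against 3.48, 4.41 and 5.00 (difference 2.06, SE 0.24, adjusted p = 8.2e-05, 4.18-fold). Thbs1 (thrombospondin 1), which activates latent TGF-beta, was highest in AAA 1 and AAA 3 and differed by 1.51 (SE 0.30, adjusted p = 0.002). Ogn (mimecan), a small proteoglycan, was the member that fell (difference -1.02, SE 0.23, adjusted p = 0.0047). Postn (difference 0.19, adjusted p = 0.7) and Tnc (difference 0.33, adjusted p = 0.15), matrix proteins of injured tissue, did not pass, nor did Fn1 by its brightest probe (difference 0.32, adjusted p = 0.3), although 1 of its 2 other probes did (difference 0.81). The methods' t-test followed by Benjamini-Hochberg adjustment was stricter, and of the 7 called genes named here it kept Ltbp2 (adjusted p = 0.038) and Comp (0.028). Fbn1 (adjusted p = 0.052), Lox (0.11), Ltbp1 (0.051) and Thbs1 (0.0503) did not pass with the fixed BeadChip block.

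Regulators of growth signals split in both directions. Of 19 genes of TGF-beta, BMP, Wnt and hedgehog signalling 9 were higher and 5 lower. Bmper, which binds and modulates BMPs, read 3.47, 3.04, 3.44, 2.87 and 2.69 in AAA and 1.18, 1.63 and 1.96 in no AAA (difference 1.47, SE 0.17, adjusted p = 7.7e-05). Sost (sclerostin), an inhibitor of Wnt signalling expressed by bone and by aortic smooth muscle, went the other way, with AAA values of 0.91, 2.44, 1.56, 2.35 and 2.77 and no AAA values of 3.16, 3.38 and 3.82. AAA 1 was lowest, and all AAA aortas lay below all resistant ones (difference -1.41, SE 0.24, adjusted p = 0.00068). Hhip, a decoy for hedgehog ligands (difference -1.30, SE 0.31, adjusted p = 0.0068), the bone morphogenetic protein Bmp6 (difference -0.95, adjusted p = 0.0065) and the Wnt inhibitor Wif1 (difference -0.84, adjusted p = 0.014) were lower too, each lowest in AAA 1. Frzb, another secreted Wnt inhibitor, was higher (difference 0.90, adjusted p = 0.00041). In the growth factor list 16 of 21 were higher and 2 lower (medians 0.44 and 1.0). Igfbp3, the main carrier of insulin-like growth factors, read 4.57, 2.18, 5.44, 2.90 and 2.12 in AAA, with AAA 1 and AAA 3 far above the rest, and 0.53, 1.02 and 1.56 in no AAA (difference 2.38, SE 0.43, adjusted p = 0.001). Igf1 differed by 1.11 (SE 0.19, adjusted p = 0.0007) and was highest in AAA 1. Sema3c, a guidance ligand (difference -1.13, adjusted p = 0.00065), and Btc, a ligand of the EGF receptor (difference -1.21, adjusted p = 0.0072), fell. Of these 10 called genes, the methods' t-test kept, after Benjamini-Hochberg adjustment, Bmper (adjusted p = 0.02) and Frzb (0.048). With BeadChip as a fixed block over 18 arrays the call ended for Sost (adjusted p = 0.094), Hhip (0.24), Bmp6 (0.14), Wif1 (0.33), Frzb (0.056) and Igf1 (0.075). With 1 array left out the adjusted p reached 0.053 for Wif1.

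Cell division genes rose nearly without exception. Of 29, 28 were higher and 1 lower (median 1.06), and of the 13 outside the study's list 12 were higher. None of them separated the groups completely. Their mean level was 2.87, 2.42, 2.88, 1.66 and 2.44 in AAA and 1.15 to 2.11 in no AAA. Cdk1, the kinase that drives entry into mitosis, read 3.17, 2.19, 3.16, 1.34 and 2.25 in AAA and 0.63, 0.78 and 1.81 in no AAA (difference 1.39, SE 0.28, adjusted p = 0.0021). Plk1, a kinase of the spindle, differed by 1.14 (SE 0.18, adjusted p = 0.00049), Cenpa, the histone of centromeres, by 1.30 (SE 0.22, adjusted p = 0.00072), and Mki67 by 1.11 (SE 0.25, adjusted p = 0.0048). Anln, an actin-binding protein of the dividing furrow, was the single member that fell (difference -0.46, SE 0.14, adjusted p = 0.023). Genes of mitosis often carry the cell cycle genes homology region, TTTGAA, near their start. These letters, on either strand and in the same 300-base windows, were found in 17 of the 26 list genes with a window, Anln among them, and in 20.2% of all 27025 genes. The 9 of them with a copy before the start are shown, each with the copy nearest to it in capitals (TTCAAA is the same element on the other strand). Another copy within a stretch stays in small letters.
Kif22: gggccccggtaaTTCAAAagagagaagcg
Kif2c: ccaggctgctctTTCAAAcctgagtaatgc
Cdc20: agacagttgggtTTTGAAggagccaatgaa
Cdca5: gcaatttgaacgTTTGAAgca
Cdk1: taccgcggcgagTTTGAAactgctggc
Mki67: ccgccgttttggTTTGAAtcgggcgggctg
Cdkn3: ttccgcgcgtctTTCAAAgacttcctctga
Top2a: gctagataaaggTTCAAAtgaaactaggga
Prc1: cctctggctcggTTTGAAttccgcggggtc
In GRCm38.p6 these lie at Kif22 at chr7:127042421-127042449, minus strand, Kif2c at chr4:117178858-117178887, minus strand, Cdc20 at chr4:118437344-118437373, minus strand, Cdca5 at chr19:6085076-6085096, plus strand, Cdk1 at chr10:69352913-69352939, minus strand, Mki67 at chr7:135716460-135716489, minus strand, Cdkn3 at chr14:46760418-46760447, plus strand, Top2a at chr11:99024195-99024224, minus strand and Prc1 at chr7:80294434-80294463, plus strand. In AAA the kinesin Kif22 (difference 1.10, adjusted p = 0.00099), Cdc20, which activates the anaphase complex (difference 0.82, adjusted p = 0.0016), Top2a, which untangles DNA (difference 0.86, adjusted p = 0.012), and Prc1, which organises the midzone of the spindle (difference 1.11, adjusted p = 0.015), were all higher. Of these 4 called genes, the methods' t-test kept, after Benjamini-Hochberg adjustment, Kif22 (adjusted p = 0.039) and Cdc20 (0.048). The fixed BeadChip block ended the call of Top2a (adjusted p = 0.16) and Prc1 (0.15). Without 1 array or another the adjusted p reached 0.056 for Prc1. The elements of the 9 genes shown began 17, 103, 18, 9, 15, 98, 111, 23 and 30 bases before the start, in the order shown. The methods' t-test followed by Benjamini-Hochberg adjustment was stricter. Of the 5 called genes given before the sequences (Cdk1, Plk1, Cenpa, Mki67 and Anln) it kept Cenpa (adjusted p = 0.045). Mki67 (adjusted p = 0.071) did not pass with the fixed BeadChip block. The adjusted p with 1 array left out rose to 0.063 for Anln.

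Each of the 8 measured endothelial genes was higher in AAA (median 1.06), 6 of them from the study's list. Aplnr, the receptor of the vasodilator apelin, read 2.19, 1.71, 2.12, 1.47 and 1.64 in AAA and 0.34, 0.52 and 0.81 in no AAA (difference 1.27, SE 0.15, adjusted p = 7.7e-05), and Robo4, a receptor that stabilises vessels, differed by 1.38 (SE 0.24, adjusted p = 0.00078). For Robo4 the saline mean (4.27) was at the level of AAA (4.26). Vcam1, the adhesion receptor of activated endothelium, passed by 1 of its 3 probes only (difference 0.55, adjusted p = 0.031). Of 10 genes of heme and iron handling 4 were higher, none of them a haemoglobin. Hmox1, which degrades heme, had AAA values of 7.68, 4.39, 7.12, 3.71 and 4.44 and no AAA values of 1.87, 2.62 and 3.37, with AAA 1 and AAA 3 far above the others (difference 2.90, SE 0.54, adjusted p = 0.0012, 7.44-fold). Slc40a1 (ferroportin), which exports iron, reached 8.35 in AAA 1 and differed by 1.98 (SE 0.45, adjusted p = 0.0048). Hp (haptoglobin), which binds free haemoglobin, differed by 1.19 (SE 0.26, adjusted p = 0.0041). Haemoglobin itself (Hbb-b1) did not pass (difference -0.27, adjusted p = 0.66), with no AAA values of 5.34 to 8.68 (median 7.32) on both sides of the AAA range of 6.64 to 7.32. With the fixed BeadChip block over 18 arrays, which rests on no AAA 7, its difference turned to 1.59 (adjusted p = 0.03). Of these 6 called genes, the methods' t-test kept, after Benjamini-Hochberg adjustment, Aplnr (adjusted p = 0.026) and Hp (0.04). With BeadChip as a fixed block over 18 arrays the call ended for Vcam1 (adjusted p = 0.24) and Slc40a1 (0.11). With 1 array left out the adjusted p reached 0.097 for Vcam1.

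Of 14 plasma protein and acute phase genes 9 were higher and 1, Fgl2 (fibrinogen-like 2, difference -0.83, adjusted p = 0.0011), lower. Kng1 (kininogen, the precursor of bradykinin) read 5.10, 4.78, 5.31, 3.51 and 4.18 in AAA against 1.91, 2.56 and 3.42 (difference 2.04, SE 0.29, adjusted p = 0.00031), and saline aortas had the AAA level (mean 4.60). Apoc1, an apolipoprotein, showed the same arrangement, with a difference of 1.77 (SE 0.35, adjusted p = 0.002) and a saline mean of 4.60 beside 4.24 in AAA and 2.47 in no AAA. Lipid handling genes were higher for 20 of 21 members, Abcg1, which exports cholesterol from macrophages (difference 1.49, SE 0.22, adjusted p = 0.00039), and Ch25h, which makes 25-hydroxycholesterol (difference 1.64, SE 0.26, adjusted p = 0.00049), among them. Among the 5 called genes of this group named above, the methods' t-test kept, after Benjamini-Hochberg adjustment, Kng1 (adjusted p = 0.041) and Abcg1 (0.039). Each kept its call with the fixed BeadChip block.

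The contractile apparatus of smooth muscle fell. Of 16 measured genes 13 were lower, none was higher and 3 did not pass (median -1.07). All 13 lower genes were in the study's list for this comparison, and those that did not pass, among them Palld (difference -0.34, adjusted p = 0.072) and Fhl2 (difference 0.46, adjusted p = 0.15), were outside it. The mean level of the list was 2.84, 3.67, 3.11, 3.53 and 3.63 in AAA 1 to 5 against 4.05 to 4.47 in no AAA, without overlap, and 3.29 to 3.63 in saline. AAA 1 and AAA 3 were lowest, and the other AAA aortas lay at or near the saline level. Acta2, smooth muscle actin, read 2.74, 4.54, 3.69, 4.00 and 4.62 in AAA and 4.85, 5.03 and 5.39 in no AAA (difference -1.12, SE 0.23, adjusted p = 0.0026), with a saline mean of 3.70. Synpo2, which bundles actin at the Z line (difference -1.44, SE 0.25, adjusted p = 0.00074), Slmap, of muscle cell membranes (difference -1.42, SE 0.20, adjusted p = 0.00023), and Cald1 (caldesmon), which restrains actomyosin (difference -1.04, SE 0.15, adjusted p = 0.00033), followed. Tes, of focal adhesions (difference -1.25, adjusted p = 0.00022), Dstn, which severs actin filaments (difference -1.12, adjusted p = 0.00041), and Ppp1r12a, the targeting subunit of myosin phosphatase (difference -1.01, adjusted p = 0.0018), were lower as well. The saline means of these genes, on another BeadChip, were all below those of no AAA. The methods' t-test followed by Benjamini-Hochberg adjustment was stricter, and of the 7 called genes named here it kept Slmap (adjusted p = 0.028), Cald1 (0.035) and Tes (0.025). Acta2 (adjusted p = 0.079) did not pass with the fixed BeadChip block.

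**Figure D4:**
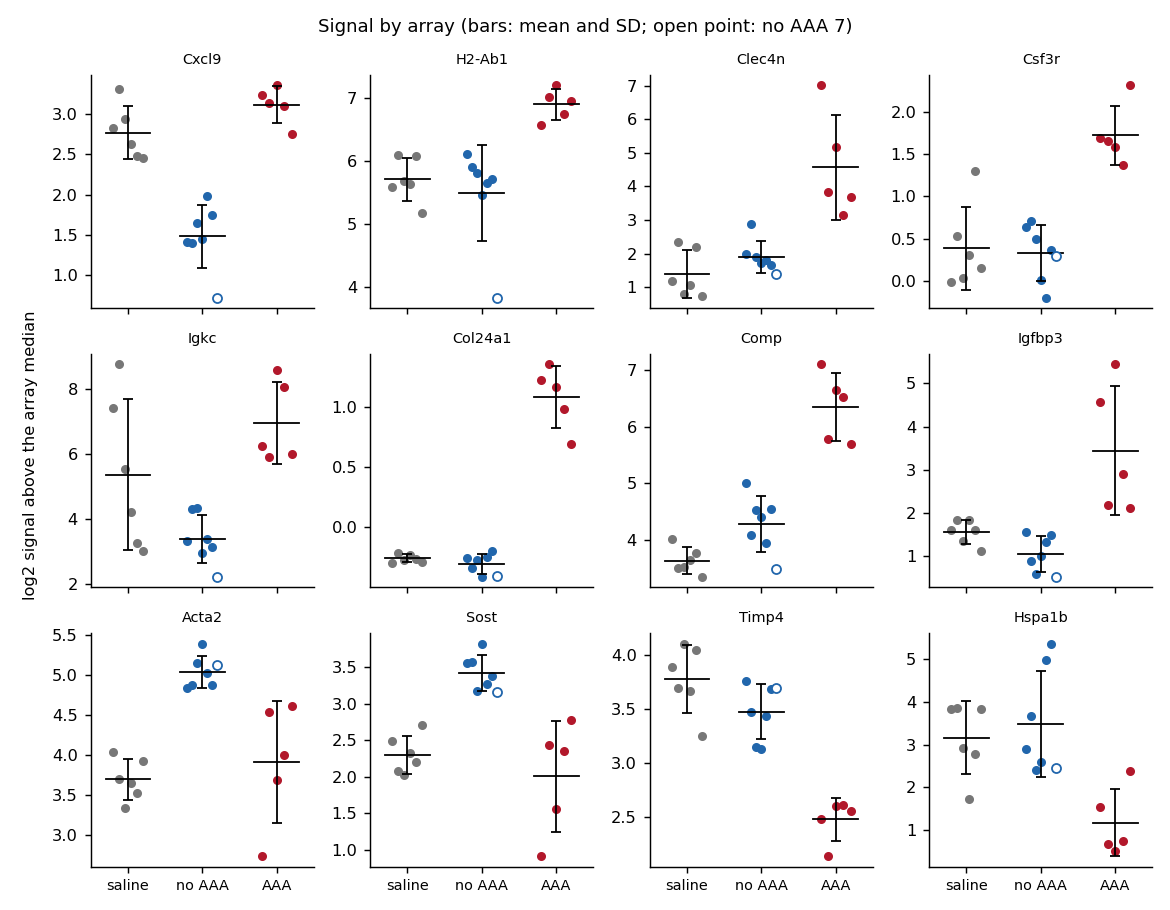
Log2 signal above the array median of 12 genes on 18 arrays, 1 point per array in saline, no AAA and AAA, with the group mean and SD as bars and no AAA 7 as the open point. Cxcl9 to Igfbp3 are higher and Acta2, Sost, Timp4 and Hspa1b lower in AAA than in no AAA, with no overlap of the 2 groups in any panel.

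Genes that set the tone of smooth muscle went both ways, 6 higher and 7 lower of 14, with 13 of the 14 in the study's list for this comparison. The lower ones act on contraction or its relaxation: Gucy1b1, a subunit of the nitric oxide receptor (difference -1.14, SE 0.18, adjusted p = 0.00045), Npy1r, the neuropeptide Y receptor that constricts vessels (difference -1.29, SE 0.20, adjusted p = 0.00045), Kcnmb1, the smooth muscle subunit of the large-conductance potassium channel (difference -1.0, SE 0.18, adjusted p = 0.001), and Rgs4, which shortens G protein signals (difference -1.12, SE 0.19, adjusted p = 0.00074). Npy1r read 3.20, 3.85, 3.71, 3.91 and 4.26 in AAA and 4.48, 5.14 and 5.66 in no AAA, without overlap. Ddah1, which clears an endogenous inhibitor of nitric oxide synthase, moved most and upward, from 1.52, 1.89 and 2.25 in no AAA to 5.97, 3.85, 5.37, 3.12 and 3.45 in AAA (difference 2.41, SE 0.35, adjusted p = 0.00034, 5.32-fold). Rgs16, of the family of Rgs4, was detected on all AAA arrays and on no array of the no AAA group, at least 1.98-fold higher (adjusted p = 0.0031), and was led by AAA 1 and AAA 3. Of these 6 called genes, the methods' t-test kept, after Benjamini-Hochberg adjustment, Npy1r (adjusted p = 0.031). With BeadChip as a fixed block over 18 arrays the call ended for Rgs16 (adjusted p = 0.12).

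Inducible chaperones were lower. Of 7 heat shock genes 4 fell, all from the study's list, and the 3 others did not pass. Hspa1b, an inducible Hsp70, read 1.55, 0.67, 0.52, 0.75 and 2.39 in AAA and 2.40, 2.91 and 5.36 in no AAA. It was the only probe to fall over 4-fold at an adjusted p under 0.05 (difference -2.31, SE 0.52, adjusted p = 0.0048, 4.95-fold), yet the resistant aortas themselves spread widely and the highest AAA aorta came within 0.01 of the lowest of them. Hspa1a, a near-identical copy whose probe may read the same RNA, differed by -1.18 (SE 0.35, adjusted p = 0.023), Hspa1l by -1.02 (SE 0.24, adjusted p = 0.0055) and Dnajb4, an Hsp40 co-chaperone, by -1.46 (SE 0.29, adjusted p = 0.0019). Against no AAA 7 alone the difference of Hspa1b was -1.27 and that of Hspa1a -0.49. Among the 4 called genes of this group named above, the methods' t-test kept none after Benjamini-Hochberg adjustment. The fixed BeadChip block ended the call of Hspa1b (adjusted p = 0.41), Hspa1a (0.66), Hspa1l (0.1) and Dnajb4 (0.065). Without 1 array or another the adjusted p reached 0.066 for Hspa1a. In the list of heart and skeletal muscle genes, 3 of 7 were lower, Xirp1, an actin-binding repeat protein (difference -1.11, adjusted p = 0.0055, lost by the methods' t-test at 0.12 and with the fixed BeadChip block at 0.43), among them, while the sarcomere genes Actc1 (difference -0.21, adjusted p = 0.8) and Tnnc1 (difference 0.27, adjusted p = 0.76) did not pass.

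Tissue around the vessel was compared to see what else the samples held. Of 31 white fat genes 3 were higher and none lower in AAA (median 0.40). Adipoq (adiponectin) read 6.88, 6.92, 7.43, 7.49 and 7.47 in AAA and 5.27, 6.91 and 7.27 in no AAA and did not pass (difference 0.64, adjusted p = 0.078). With BeadChip as a fixed block it did, with a difference of 1.97 (adjusted p = 0.0011 over 18 arrays and 0.0065 over 12). Against no AAA 7 alone, on the BeadChip of AAA, all 31 white fat differences were above 0 (median 1.00). Of 18 brown fat genes 1 was lower, and Ucp1, the uncoupling protein, differed by 0.16 (SE 0.52, adjusted p = 0.87). Of 38 respiratory chain genes 1 was lower, mt-Nd4l (difference -1.17, adjusted p = 0.00028), a call that ended with the methods' t-test (adjusted p = 0.054). Against no AAA 7 alone, 33 of the 38 were above 0 (median 0.62). None of 8 clock genes passed. Of 8 genes in the list for nerve, adrenal, pancreas, mesothelium and lymphatic vessels, 2 were higher and 2 lower. The mean white fat level was 3.70, 3.80, 4.41, 4.81 and 4.63 in AAA against 3.20 to 4.69 in no AAA, with saline at 5.47 to 6.05. The order of the AAA aortas for fat, with AAA 1 and AAA 2 lowest, was not that of the macrophage or antibody genes. Beside the leukocyte, endothelial and matrix results above, the mean levels of these markers of adjoining tissue overlapped between AAA and no AAA, and their part in those results was not tested.

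**Figure D5:**
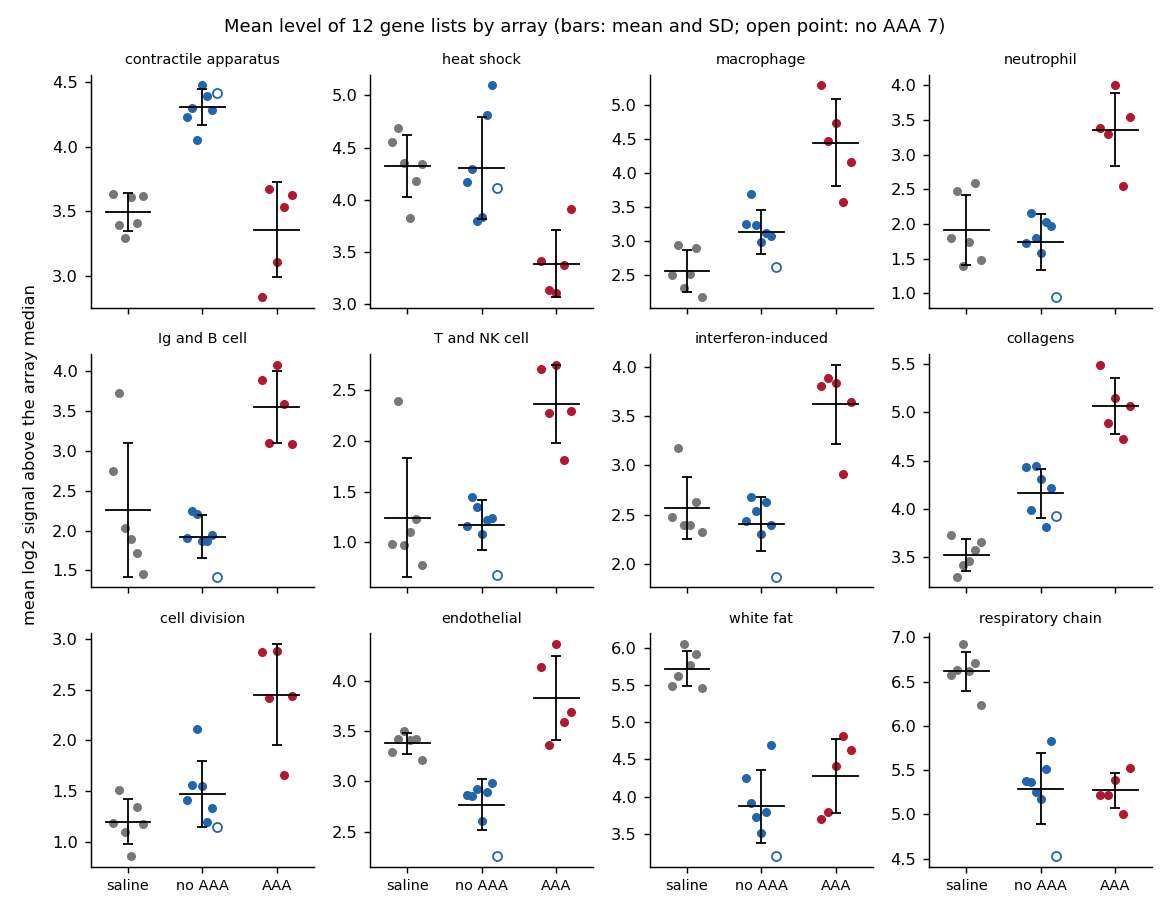
Mean log2 signal above the array median of the named genes of 12 lists, 1 point per array in saline, no AAA and AAA, with the group mean and SD as bars and no AAA 7 as the open point. The mean macrophage, neutrophil, immunoglobulin and B cell, collagen and cell division levels are higher in AAA and the contractile and heat shock means lower, with AAA 4 inside the no AAA range for macrophage and cell division genes, and white fat and respiratory chain levels overlap between AAA and no AAA.

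Set side by side, the 5 aneurysmal aortas fell into no single order. AAA 1 had the highest macrophage (5.29) and collagen (5.49) levels and the lowest contractile level (2.84). AAA 3 had the highest neutrophil (4.00), protease (4.97) and immunoglobulin and B cell (4.08) levels. AAA 4 had the lowest macrophage (3.57), chemokine (2.74), interferon (2.91) and cell division (1.66) levels of the 5. Its mean kappa variable RNA level (2.87) was high, while its immunoglobulin and B cell level (3.58) was below those of AAA 3 and AAA 1 (3.88). AAA 2 had the highest interferon level (3.89) and AAA 5 the lowest immunoglobulin and B cell level (3.08) of the 5, and the contractile levels of both (3.67 and 3.63) were close to the top of the saline range. In 18 of the 31 lists the mean level of all 5 stayed above that of all 7 resistant aortas and in 1, the contractile apparatus, below. In the other 12, macrophage, cell division and heat shock genes among them, the groups overlapped. Aneurysm size was not analysed here.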

How the data were processed

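Whole aortas were profiled on Illumina Mouse-6 v1.1 BeadChips, 1 array per mouse. The authors deposited the average bead intensity of each probe as BeadStudio 2 gave it, with neither normalization nor background subtraction, and beside it a detection score that is a fraction from 0 to 1. Each sample was tied to its array through the array named in its description. Of the other columns, 108 held further measures of the same arrays (bead numbers, errors and the like) and were not used, nor was a deposited table of ratios, in which the columns of the 12 infused mice hold the values of another array than their description names. Gene names came from the study's lists of changed transcripts, with fold changes and p-values that were not used, and were brought up to date through RefSeq. For 9 probes outside those lists the name came from an accession in the probe identifier. Names were had for 1350 genes.

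Each signal was divided by the median of its array and expressed as log2. Probes detected (score over 0.95) on at least 5 of 18 arrays were tested, 21434 of 46624. limma 3.58.1 (R 4.3.3) was fitted to the 3 group means over 18 arrays, with a trend in eBayes and Benjamini-Hochberg adjustment, which was tested first on simulated arrays. A gene with several probes was represented by the brightest. Genes named are the 12 highest and 12 lowest called differences without overlap, the up to 6 members of each list with the smallest p, the genes the study followed by other assays, cell type markers, and further list members. Tgfb1, one of those followed, had no named probe. Alternatives changed 1 choice at a time, save that the fixed BeadChip block was first fitted to the 12 infused arrays alone and that the t-test read only those: quantile, 75th percentile and normexp (offset 50) scaling, the filter on dim probes, the 12 infused arrays alone, array weights, eBayes without trend, the methods' t-test, BeadChip as a fixed or random block, the replicate number as a block and each array left out. The number of arrays limits the precision. Members, lists and tests were chosen with earlier results of these data known. Promoter windows are RefSeq's, GRCm38.p6, and reach from 250 bases before to 50 after the start.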

Additional observations from a re-analysis of the deposited data

Results flagged for a closer look

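In 28 of 348 sets of arrays, 1 set per group for each named gene, each gene list, the immunoglobulin constant region IGHG2C and the number of detected probes, the highest or lowest array stood farther from its nearest neighbour than Dixon's criterion allows. Chance alone flags about 1 set in 20 where sets are independent, and these share arrays and genes. Values are log2 signals above the array median, and the causes were not tested.

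In AAA 1 the highest value of its group was found for Igf1 (6.52, the others 4.98 to 5.33). AAA 2 stood below its group for Timp4 (2.14, the others 2.48 to 2.62). The array AAA 4 was highest of its group for mt-Nd4l (5.16, the others 4.00 to 4.27). In AAA 4 the lowest value of its group was found for Cdkn3 (1.64, the others 2.82 to 3.17), Timp1 (4.91, the others 7.21 to 7.65), Trim30a (3.49, the others 4.06 to 4.23), Vcam1 (6.27, the others 7.14 to 7.30), the mean of chemokines and receptors (2.74, the others 3.63 to 3.97) and the mean of interferon-induced genes (2.91, the others 3.65 to 3.89). No AAA 1 stood below its group for Rgs4 (5.24, the others 5.60 to 5.71). The array no AAA 2 was highest of its group for Clec4n (2.89, the others 1.39 to 1.99). In no AAA 3 the highest value of its group was found for Cdca5 (1.06, the others 0.23 to 0.56), LOC384414 (1.36, the others 0.23 to 0.49) and Top2a (1.70, the others 0.74 to 1.14). No AAA 4 stood above its group for Palld (4.10, the others 3.72 to 3.88). The array no AAA 4 was lowest of its group for Ucp1 (4.15, the others 7.01 to 8.43). In no AAA 7 the highest value of its group was found for Fgl2 (6.43, the others 5.72 to 5.95). No AAA 7 stood below its group for Apoc1 (0.78, the others 2.19 to 3.24), C1qa (2.78, the others 3.69 to 4.38), Ccl21a (1.87, the others 3.70 to 4.26), Ccl21b (1.85, the others 3.66 to 4.08), Ccl8 (1.29, the others 3.24 to 4.63), Coro1a (3.52, the others 4.45 to 5.04), Cybb (1.68, the others 2.17 to 2.50), H2-Ab1 (3.83, the others 5.46 to 6.10), Oas1g (1.43, the others 1.96 to 2.31), the mean of MHC class II and dendritic cell genes (2.31, the others 3.05 to 3.53) and the mean of chemokines and receptors (1.36, the others 2.09 to 2.64).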

How the results depend on the processing

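The main counts were 2310 probes higher and 1813 lower by adjusted p, and 505 and 89 by the study's threshold of fold and unadjusted p. The methods' t-test with adjustment gave 473 higher and 323 lower, and kept 462 and 312 of the same probes. BeadChip as a fixed block over the 12 infused arrays, where the block rests on no AAA 7 alone, gave 1034 and 450 by adjusted p (1975 and 1354 over these arrays with no block), and by the study's threshold 1247 and 250. The same block over all 18 arrays, added after the data were seen, gave 1809 and 935, and by the study's threshold 1251 and 259, and 1114 and 657 of the main calls were kept. In that fit too, each difference is the AAA mean minus no AAA 7 alone. Scaling to the 75th percentile gave 2741 lower. Leaving out 1 array gave 1657 to 2628 higher and 1051 to 1974 lower, and by the study's threshold 380 to 606 and 43 to 129. The fewest lower calls came without AAA 3 (1051) or AAA 1 (1204), where the study's threshold left 59 and 43. Over all settings no called probe was called in the opposite direction. The random BeadChip block gave 1951 and 1375. Without no AAA 7 the counts were 1974 and 1595.

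A replicate block gave 1761 and 1297. The numbers name only a place on the slide and do not pair animals: AAA and no AAA arrays 1 to 5 had correlations of their deviations of -0.16, 0.21, 0.29, -0.10 and -0.10. Of 124 called genes named in the text none changed sign under any setting, but Hbb-b1, not called, went from -0.27 to 1.59 and was called with the 18-array block. Calls of Adipoq and Col4a2 were gained with that block, and of Adipoq, Cd3d and Cd79b with the 12-array one. The t-test ended 86 of those calls, the 12-array block 54, the 18-array block 33 and the replicate block 4 (Anln, Igh-1a, S100a8 and Tnfrsf11b). Leaving out 1 array ended the call of 12. Without AAA 3 these were Anln, Col3a1, Csf1r, Hspa1a, Igh-1a, Prc1, S100a8, Timp1, Tnfrsf11b, Vcam1 and Wif1, and without AAA 1 Isg15 was lost besides. Calls just past the threshold, those of S100a8 and Tnfrsf11b above all, were lost under most settings. The causes were not tested. The number of arrays and the signal over background limit what can be called, and probes detected on fewer than 5 arrays were not tested.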
